A study of Mus musculus with 5 samples.

Results

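The RNAs described here are noncoding transcripts of B16F1 mouse melanoma cells whose array signal differed at least 2-fold, a log2 difference of 1.00 or more, with TGF-β1 or with the compound CCG1423. Members were probes with a RefSeq noncoding (NR_) accession and a signal well above background on all 5 arrays. Each had an absolute difference of 1.00 or more between TGF-β1 and vehicle, or between TGF-β1 with CCG1423 and TGF-β1 alone. The rule was met by 104 probes for 101 RNAs, of 614 noncoding probes measured on all 5 arrays and 2477 noncoding probes kept. The differences in these 2 contrasts therefore are the values the members were chosen by, and are given as description, with no test.

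B16F1 is a transplantable mouse melanoma line. Wild-type cells received vehicle, TGF-β1 at 10 ng/ml, or TGF-β1 at 10 ng/ml with the MRTF inhibitor CCG1423 at 10 µM, and 2 knockout clones of Tmsb4x, named clone 1 and clone 2, received TGF-β1 at 10 ng/ml. Treatment lasted 2 days per the labels, all cells grew in serum-containing medium, and each of the 5 cultures gave 1 array. The series text calls the Tmsb4x cells knockdown, and the treatment label of the third culture lists CCG1423 alone, while its title and description name both agents. No clone was grown without TGF-β1, and no wild-type culture received CCG1423 without TGF-β1. TGF-β1 acts through receptor kinases that activate SMAD transcription factors, which often bind DNA together with AP-1. MRTFs are coactivators of the serum response factor SRF, and are held inactive by monomeric actin, which thymosin β4, the product of Tmsb4x, also binds. Noncoding RNAs include long RNAs made by RNA polymerase II, transcripts of pseudogenes, and small structured RNAs that process or modify other RNAs.

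A level below is the log2 processed signal of a probe minus the 75th percentile of its array, so a level of 0 equals that percentile, and values are given in the order vehicle, TGF-β1, TGF-β1 with CCG1423, clone 1, clone 2. The percentile signals were 229.6 to 329 intensity units, and no spot was saturated. Of all noncoding probes kept, 24.8% were measured on every array, against 57.2% of probes for messenger RNA accessions and 44.7% of all probes. The melanocyte markers Tyr, Tyrp1, Dct, Pmel, Mlana, Mitf and Sox10 were well above background on all 5 arrays (7 of 7), while none of 4 fibroblast, 4 epithelial or 3 endothelial markers was, and of 4 immune markers only Cd3e was. The summed level of the fibroblast markers was -1.495 with vehicle and between -3.65 and -2.90 on the other 4 arrays. Of these markers Pdgfra, Dcn and Thy1 were never well above background, while Lum was on the vehicle array alone, at -1.78 against -6.46 with TGF-β1. The part of this in the TGF-β1 contrast was not tested. Tmsb4x had levels of 5.05, 7.12, 6.79, 5.44 and 4.28, lower in both clones than in the wild type with TGF-β1 but not below the vehicle array in clone 1. Where the probe lies relative to the edited part is not given in the sources used here. As these are bulk cultures, fewer cells of a type and less RNA per cell cannot be told apart. Each wild-type condition had 1 array, so no wild-type difference has a replicate check. The 2 clones give the spread within a condition: their median absolute difference over all probes measured was 0.26. Each member rests on 1 spot per array, whose error by the scanner's own model had a median of 10.3% (10.0% to 17.4%).

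Past the threshold in the TGF-β1 contrast were 26 members. Of these, 17 were higher and 9 lower with TGF-β1 than with vehicle, where 3.78% of all 25280 probes measured passed in either direction (2.72% higher, 1.06% lower). In the CCG1423 contrast 90 members passed: 43 probes for 41 RNAs were higher and 47 lower than with TGF-β1 alone, where 9.39% of all probes passed (4.28% higher, 5.11% lower). With the scaling of the deposited value table that split was 29 higher and 59 lower. In 12 members both contrasts passed (1.23% of all probes), in 14 only that of TGF-β1 and in 78 only that of CCG1423. Requiring signal on the arrays of the contrast alone gave 40 noncoding probes in the TGF-β1 contrast, 22 higher and 18 lower, and 108 in the CCG1423 contrast. The differences shrank with a background model that adds an offset (normexp): 51 of the 104 then still passed, with 8 of the 17 higher and 8 of the 9 lower with TGF-β1, and 17 of the 43 higher and 20 of the 47 lower with CCG1423. The 53 that did not had a median spot level of -1.89, against 0.75 for those that did.

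**Figure D1:**
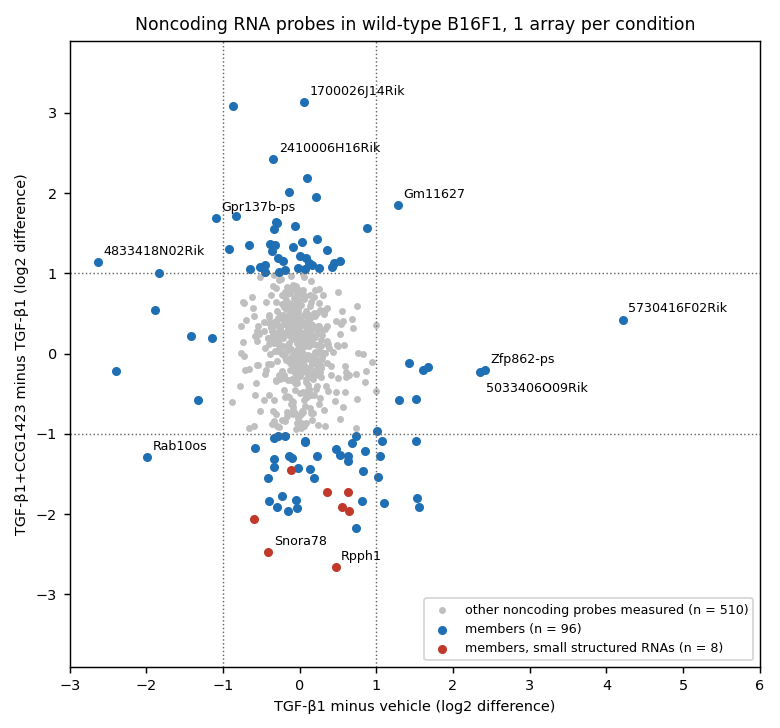
Each point is a noncoding RNA probe measured on all 5 arrays, with the log2 difference TGF-β1 minus vehicle on the x axis and TGF-β1 with CCG1423 minus TGF-β1 on the y axis; both axes use the same TGF-β1 array. Blue and red points are the 104 members, grey points the 510 other noncoding probes, and dotted lines mark 1 and -1. The 8 small structured RNAs (red) all lie below -1 on the y axis, and 5730416F02Rik lies farthest right at 4.21.

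The members spanned several kinds of RNA. RefSeq's gene table of assembly GRCm38.p6 classed 72 member probes (70 genes) as long noncoding RNA, of 419 such probes measured. A further 13 of 108 were transcribed pseudogenes, 8 of 23 were small structured RNAs, and 6 of 25 were noncoding transcripts of protein-coding genes. The 5 remaining member probes carry 4 accessions (NR_002840, NR_003280, NR_033626 and NR_033355) that had no match in the table and keep their accession as name. Among long noncoding RNAs, 13 probes were higher and 7 lower with TGF-β1, and 33 were higher and 29 lower with CCG1423. Among pseudogenes the counts were 3, 2, 3 and 7 in the same order. All 8 members classed as small structured RNAs were lower with CCG1423, and none passed with TGF-β1. Ribosomal RNA is a class of its own and is not counted among them. The 5 member probes without a match have no class and could be of any kind. Of these, 4 were higher and 1 lower with CCG1423.

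The largest TGF-β1 difference belonged to 5730416F02Rik, a transcribed pseudogene, with levels of -3.65, 0.56, 0.98, -1.04 and -1.59. Vehicle was the lowest of the 5 arrays, both wild-type arrays with TGF-β1 were the highest, and both clones lay between. TGF-β1 stood 4.21 above vehicle (18.5-fold), and the array with CCG1423 differed from it by 0.42. Whether this pseudogene probe also binds RNA of a parent gene was not tested. Zfp862-ps, a pseudogene of a zinc finger gene, had levels of -0.76, 1.66, 1.45, 1.496 and 0.65, and 5033406O09Rik, a long noncoding RNA, had -2.44, -0.08, -0.32, 0.92 and 0.12. For both, all 4 arrays with TGF-β1 lay above the vehicle array, and the TGF-β1 differences were 2.42 and 2.36. Gm16907 lay at -0.72 with vehicle and between 0.73 and 0.95 on the 4 arrays with TGF-β1, which differed from each other by less than from vehicle. Kcnmb4os2, transcribed opposite the gene of the potassium channel subunit Kcnmb4, had levels of -4.00, -2.39, -2.59, -1.34 and -1.56, and 2810029C07Rik had -3.99, -2.57, -2.68, -1.45 and -2.52. In each of these 6 RNAs the vehicle array was the lowest, and the CCG1423 contrast stayed within -0.23 to 0.42. The vehicle spots of Kcnmb4os2 and 2810029C07Rik were dim, at 18.7 and 18.9 intensity units. The lowest signal well above background on that array was 15.5. With normexp the TGF-β1 difference was 0.57 for each of them, and 1.33 to 2.43 for the others.

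The noncoding transcript of Bmp1, the gene of the procollagen C-proteinase that trims collagen precursors, had levels of 0.22, 1.73, 1.16, 0.92 and 1.07. Vehicle was again lowest, and the TGF-β1 array was the highest at 1.51 above it. Both probes for the coding Bmp1 transcript were higher with TGF-β1 too, by 1.42 and 0.51. Morrbid, a long noncoding RNA described in myeloid cells as a regulator of the neighbouring death gene Bcl2l11, had 2 member probes for different transcripts. The NR_028591 probe had levels of 0.90, 2.20, 1.62, 2.80 and 2.14, a TGF-β1 difference of 1.30. The NR_028590 probe had -1.72, -0.99, -3.17, -1.04 and -1.14, so it was lowest with CCG1423 (difference -2.18), while the first probe differed by -0.58 there. The member nearest the threshold was Gm19710 at 1.01. The host gene of microRNA miR-22, Mir22hg, lay just outside it at 0.9998, with levels of 0.58, 1.58, 1.94, 2.03 and 2.19.

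Starts of the RNAs higher with TGF-β1 were read for motif letters, since SMAD and AP-1 sites are the textbook elements of the pathway. RefSeq promoter sequence of GRCm38.p6, 300 bases with 250 before the start, was matched for 12 of these 17 RNAs. The AP-1 letters TGANTCA (N any base, both strands) were in 4 of the 12, or 33.3%, against 7.81% of all 32851 promoters of that length. They were also in 6 of 30 promoters (20.0%) of the RNAs lower with CCG1423, in 1 of 8 (12.5%) of those lower with TGF-β1 and in 2 of 36 (5.56%) of those higher with CCG1423. 1600019K03Rik and Morrbid are among both the 4 and the 6. The SMAD letters CAGAC were in 6 of the 12, against 49.6% of all promoters. The 4 promoters with AP-1 letters are shown, with matches to either motif and to GGAATG, the letters of TEAD sites, in capitals on either strand (GTCTG and CATTCC being the reverse forms of CAGAC and GGAATG).
1600019K03Rik (chr16:35509370-35509669, minus strand): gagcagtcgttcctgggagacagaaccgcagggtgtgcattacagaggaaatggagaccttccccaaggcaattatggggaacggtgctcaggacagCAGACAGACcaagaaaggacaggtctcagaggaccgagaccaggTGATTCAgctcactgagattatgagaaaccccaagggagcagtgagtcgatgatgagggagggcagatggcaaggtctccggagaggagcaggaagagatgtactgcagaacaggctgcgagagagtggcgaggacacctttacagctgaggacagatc
5033406O09Rik (chr12:111944433-111944732, minus strand): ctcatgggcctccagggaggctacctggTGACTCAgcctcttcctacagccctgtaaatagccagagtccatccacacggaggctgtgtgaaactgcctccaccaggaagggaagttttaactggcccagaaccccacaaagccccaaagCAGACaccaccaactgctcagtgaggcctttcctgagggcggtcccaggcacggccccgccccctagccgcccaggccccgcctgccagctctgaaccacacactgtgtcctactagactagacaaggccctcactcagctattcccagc
Gm16907 (chr13:63297098-63297397, minus strand): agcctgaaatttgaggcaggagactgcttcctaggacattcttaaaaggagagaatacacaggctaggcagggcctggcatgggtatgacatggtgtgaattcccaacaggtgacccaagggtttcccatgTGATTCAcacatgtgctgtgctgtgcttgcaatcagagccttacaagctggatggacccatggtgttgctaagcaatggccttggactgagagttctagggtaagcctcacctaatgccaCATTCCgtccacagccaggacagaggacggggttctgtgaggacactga
Morrbid (chr2:128429302-128429601, minus strand): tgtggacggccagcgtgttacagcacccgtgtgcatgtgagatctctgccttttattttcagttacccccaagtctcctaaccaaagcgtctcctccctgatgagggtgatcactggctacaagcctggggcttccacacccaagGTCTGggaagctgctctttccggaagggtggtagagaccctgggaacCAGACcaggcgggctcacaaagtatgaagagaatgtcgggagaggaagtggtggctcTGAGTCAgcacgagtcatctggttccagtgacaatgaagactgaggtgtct

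All 4 RNAs have AP-1 letters once in the stretch shown, and 3 of them also have CAGAC; Gm16907 has GGAATG in its place. Over all members with a match (75 promoters of 68 genes), AP-1 letters were in 14.7%, CAGAC in 49.3% and GGAATG in 17.3%, where 14.7% of all promoters hold GGAATG. The CHOP-ATF4 letters TGATGNAA were in 1.33% of member promoters and 3.97% of all promoters, and the CArG box bound by SRF in 1.33% and 1.63%. A match describes letters and was not tested as a binding site.

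Of the 9 RNAs lower with TGF-β1, 4833418N02Rik differed most, with levels of -0.09, -2.73, -1.59, -1.96 and -2.07. Vehicle was the highest array, and TGF-β1 differed from it by -2.63 (6.21-fold lower). A730085K08Rik had levels of -0.73, -3.12, -3.33, -2.73 and -3.29, and 9430091E24Rik had -0.63, -2.52, -1.97, -2.75 and -2.79. In both RNAs the 4 arrays with TGF-β1 lay at least 1 below vehicle. AA543401, a transcribed pseudogene, lay at 0.58 with vehicle and between -0.84 and -0.63 on the other 4 arrays. Gm16062 had levels of 1.41, 0.08, -0.50, 0.90 and 0.90, so its clones lay between vehicle and the wild type with TGF-β1. D930048N14Rik had -2.06, -3.21, -3.02, -3.34 and -2.19, where clone 2 was close to vehicle, and clone 1 minus clone 2 was -1.16, as large as the TGF-β1 difference of -1.15.

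Both contrasts passed in 12 members, in 4 patterns. With normexp, only Marcksl1-ps4 (1.00 and -1.51) and Gpr137b-ps (-1.10 and 1.62) of these 12 still passed in both. For example, A630077J23Rik then gave 0.79 and -0.70, and Norad 0.68 and -0.65. Higher with TGF-β1 and lower with CCG1423 were 7 (0.858% of all probes had this pattern): A630077J23Rik, 1600019K03Rik, Gm26688, B230208H11Rik, 4632427E13Rik, Norad and Marcksl1-ps4. Since the TGF-β1 array is in both contrasts, an error on it moves them in opposite directions, and nothing is read from this count. A630077J23Rik had levels of -2.92, -1.36, -3.27, -2.83 and -2.11, and 1600019K03Rik had -2.10, -0.57, -2.37, -0.72 and -1.59. B230208H11Rik had -0.91, 0.19, -1.67, 0.20 and -0.29. With CCG1423 these 3 differed from vehicle by -0.35, -0.27 and -0.76, and clone 1 was near the TGF-β1 level in the last 2 but near vehicle in A630077J23Rik.
Gm26688 lay at -1.91 with vehicle, -0.40 with TGF-β1, -1.49 with CCG1423, 0.61 in clone 1 and -0.18 in clone 2, so both clones exceeded the wild type. For 4632427E13Rik the 5 levels were -1.16, -0.09, -1.18, -0.68 and -0.87, with the TGF-β1 array the highest.

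The remaining patterns held 5 RNAs. Gm11627 was higher in both contrasts, with levels of -2.76, -1.48, 0.37, -0.22 and -1.38, so the CCG1423 array was 3.13 above vehicle. Rab10os, transcribed opposite the vesicle transport gene Rab10, was lower in both, with levels of -0.27, -2.25, -3.55, -2.44 and -1.30. The CCG1423 array of Rab10os was the lowest and differed from vehicle by -3.28 (9.72-fold lower). Its spot there was dim, at 19.7 intensity units, where the lowest signal well above background on that array was 15.2. With normexp the CCG1423 contrast of Rab10os was -0.34.
Lower with TGF-β1 and higher with CCG1423 were 3 (0.233% of all probes): 4833418N02Rik, 4930447F24Rik and Gpr137b-ps. Gpr137b-ps, related to a gene of a lysosomal membrane protein, had levels of 5.66, 4.56, 6.25, 4.06 and 4.25, highest with CCG1423 and lowest in the clones. In 4930447F24Rik the levels were 0.04, -1.79, -0.79, -0.12 and -2.89, and its CCG1423 difference of 1.0026 was the smallest that passed, while 4930558J18Rik at 0.9969 was the nearest outside.

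**Figure D2:**
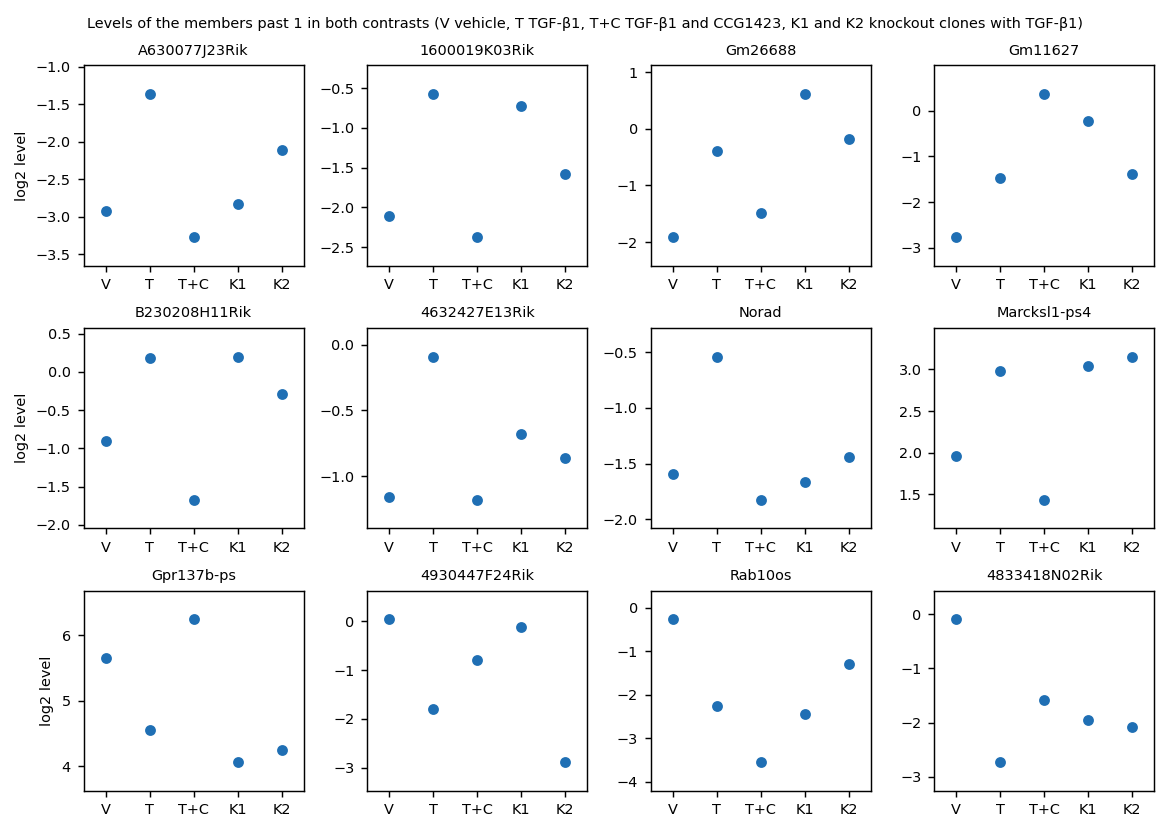
Levels (y axis, log2 processed signal minus the array's 75th percentile, a separate scale per panel) of the 12 members past 1 in both contrasts, on the 5 arrays (x axis). Each point is 1 array; for example, A630077J23Rik is highest with TGF-β1 at -1.36, Gm11627 is highest with CCG1423 at 0.37, and Rab10os is highest with vehicle at -0.27.

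The largest difference above TGF-β1 alone was that of 1700026J14Rik, a long noncoding RNA, with levels of -3.67, -3.62, -0.49, -1.13 and -2.97. The CCG1423 array was the highest and clone 1 the next, and the difference was 3.13 (8.76-fold). NR_033626 had levels of -3.10, -3.98, -0.89, -3.94 and -2.76 (difference 3.09), and Gm20744 had -3.52, -3.43, -1.24, -3.88 and -1.91 (difference 2.19). In both, the CCG1423 array lay above the other 4, and clone 2 was the next.
2410006H16Rik, a long noncoding RNA, had levels of 3.19, 2.84, 5.27, 3.39 and 2.62, so the CCG1423 array stood apart by 2.42 from TGF-β1 alone (5.36-fold) while the other 4 spanned less than 1. NR_003280 had 4.03, 3.88, 5.90, 4.25 and 3.39, and 1110046J04Rik had 0.38, 0.60, 2.55, 0.82 and 0.31. In both the CCG1423 array was the highest, by 2.01 and 1.95 over TGF-β1 alone. Differences of 1.72 in 9330102E08Rik and 1.65 in 5031434O11Rik, with those of Gm11627 and Gpr137b-ps above, complete the 10 largest. The levels of 9330102E08Rik were 0.95, 0.12, 1.84, -0.03 and 0.86, and those of 5031434O11Rik were -3.23, -3.54, -1.89, -3.10 and -3.20. The TGF-β1 spots of 1700026J14Rik, NR_033626, Gm20744 and 5031434O11Rik were dim, at 18.7 to 27.3 intensity units. The lowest signal well above background on that array was 13.3. With normexp their CCG1423 differences were 1.45, 1.54, 0.96 and 0.79, so Gm20744 and 5031434O11Rik did not pass. Those of the other RNAs among the 10 largest stayed at 1.29 or more.

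The promoter of 1700026J14Rik is shown because its RNA had the largest CCG1423 difference; capitals mark CAGAC, its only match among the 5 motifs searched.
1700026J14Rik (chr6:48537425-48537724, minus strand): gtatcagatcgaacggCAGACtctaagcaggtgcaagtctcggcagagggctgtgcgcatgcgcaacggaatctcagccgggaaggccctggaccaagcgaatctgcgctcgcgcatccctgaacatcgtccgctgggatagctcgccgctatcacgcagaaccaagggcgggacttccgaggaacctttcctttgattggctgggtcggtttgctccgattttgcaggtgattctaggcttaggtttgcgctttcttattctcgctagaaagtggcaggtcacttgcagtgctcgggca

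Of the 43 probes higher with CCG1423, 27 were also 1 or more above vehicle and 1 was 1 or more below it (11.7% of all probes passed in either direction between these arrays, 5.44% higher and 6.22% lower). Of the 47 lower ones, 32 were 1 or more below vehicle and none was 1 or more above it. These contrasts share the CCG1423 array.

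Of the 10 lowest of the 47 members lower with CCG1423, 5 were small structured RNAs (Rpph1, Snora78, Scarna13, Rprl1 and Rprl3), and the median of the 47 was -1.44. Rpph1, the catalytic RNA of RNase P, which trims the leader of transfer RNA precursors, had levels of 2.52, 2.99, 0.33, 2.51 and 2.61. The CCG1423 array was the lowest and the other 4 lay between 2.51 and 2.99, and the difference from TGF-β1 alone was -2.66 (6.32-fold lower).
The related Rprl1, Rprl2 and Rprl3 differed by -1.96, -1.72 and -1.91, with the CCG1423 array the lowest of 5 in each. Near-identical RNase P copies may share signal, so the 4 probes are not independent. Snora78 had levels of -0.28, -0.69, -3.17, -1.37 and -1.13 (difference -2.48), Scarna13 had 2.68, 2.09, 0.02, 1.51 and 1.28 (difference -2.06), and Snora47 had -2.03, -1.40, -3.12, -1.90 and -2.61 (difference -1.72). These 3 belong to the H/ACA RNAs, which guide the conversion of uridine to pseudouridine in other RNAs, and in each the CCG1423 array was the lowest. Rnu2-10 is a copy of the U2 spliceosomal RNA, which pairs with the intron branch site. It lay at -0.05 with CCG1423 and between 1.40 and 1.52 on the other 4 arrays (difference -1.45). The CCG1423 spots of Snora78, Snora47 and Rprl1 were dim, at 25.5, 26.5 and 28.8 intensity units. With normexp their differences were -1.10, -0.67 and -0.90, so Snora47 and Rprl1 did not pass. Those of Rpph1, Scarna13, Rprl2, Rprl3 and Rnu2-10 were -2.46, -1.90, -1.33, -1.44 and -1.29.

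Of the 23 measured RNAs classed as small structured, 18 lay below TGF-β1 alone with CCG1423, with a median difference of -0.75. Of the 419 long noncoding RNA probes 170 did, with a median of 0.14. The classes differed. The 4 RNase P RNAs had a median of -1.93, and 6 of 7 H/ACA RNAs lay below 0 with a median of -0.83. The 4 C/D RNAs had a median of -0.15 with no member: 3 are Snord RNAs (-0.23 to 0.23), a family known for guiding methylation of ribose, and the lowest at -0.75 is Rnu3b1, a U3 RNA, which acts in the cleavage of ribosomal RNA precursors. Among the rest, the 5 spliceosomal RNAs had -0.21 with 1 member. Rmrp, Rn7s1 and Rn7sk, the RNAs of RNase MRP, of the signal recognition particle and of the 7SK particle, had a median of 0.32. In the clones the 23 RNAs had medians of 0.19 (clone 1 minus wild type) and -0.27 (clone 2). These RNAs have no long poly(A) tail in their mature form, and the labelling kit named in the labels primes from poly(A). Which precursor or mature form each probe reported was not tested.

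Several snoRNAs and related RNAs lie inside the introns or spans of longer genes, from which they are processed. Scarna13 differed by -2.06 with CCG1423, and Snhg10, in whose span it lies, by -0.27. Snora78 differed by -2.48, while Rps2, the gene of a ribosomal protein, differed by 0.46 and Snhg9 by 0.20. Snora47 differed by -1.72 and its host Zbed3 by -0.58. In these 3 cases the small RNA was lower than its host by more than 1 on the log2 scale. The CCG1423 spots of Snora78 and Snora47 were dim, and with normexp their own differences were -1.10 and -0.67, against -1.90 for Scarna13. The reverse order held for Snora73a and Snora74a, neither of them a member: they differed by -0.78 and -0.83, and their hosts Snhg3 and Snhg4, both members, by -1.42 and -1.55. In each of these pairs the RNA chosen by the rule was the lower one, so nothing is read from the order. With normexp the differences of Snhg3 and Snhg4 were -1.33 and -0.47. Pairs with no member were Snora52 and Rplp2 (-0.78 and 0.36), Snora34 and Kansl2 (0.09 and 0.00), and Snord17 and Snx5 (-0.07 and -0.23). The others were Snord33 and Rpl13a (0.23 and 0.61), and Snord7 and AA465934 (-0.23 and -0.72).

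**Figure D3:**
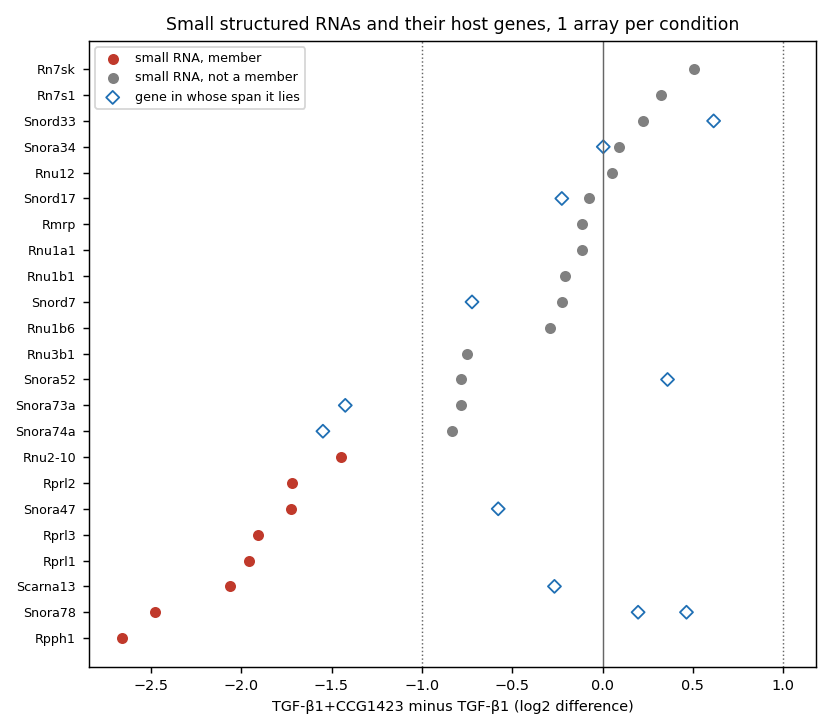
Log2 difference TGF-β1 with CCG1423 minus TGF-β1 alone (x axis) for the 23 small structured RNAs measured, in order (y axis); 1 array per condition. Filled red points are the 8 members, from Rpph1 at -2.66 to Rnu2-10 at -1.45, grey points the other small RNAs, and open diamonds the genes in whose span a small RNA lies, such as Rps2 at 0.46 beside Snora78 at -2.48.

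The host genes of snoRNAs were read as a list of their own. Of 24 symbols listed, 15 were found on the array and 14 were measured with 15 probes, with a median CCG1423 difference of 0.21 and 3 members. Symbols of this list and of those below came from RefSeq's gene table. A listed RNA whose accession had no match there counts as not on the array, so the counts and medians may be incomplete. Of 70 noncoding probes without a match 36 were measured, and unmatched members such as NR_002840 were not checked against the lists. Snhg3 had levels of 2.46, 2.44, 1.01, 2.27 and 2.09, and Snhg4 had -1.57, -1.99, -3.54, -2.88 and -3.15, both lowest with CCG1423. The CCG1423 spot of Snhg4 was dim, at 19.8 intensity units. With normexp the CCG1423 difference of Snhg4 was -0.47, against -1.33 for Snhg3. Snhg12 went the other way, with levels of 1.48, 1.11, 2.39, 0.71 and 0.49 and a difference of 1.28. No member of this list passed with TGF-β1. Of 21 well-studied nuclear and structural RNAs listed, 11 were measured with 19 probes, with a median CCG1423 difference of 0.19. The members among them were Pvt1, Norad and Rpph1. Pvt1, the neighbour of Myc, had levels of 1.31, 0.80, 1.87, 0.79 and 1.23 and a difference of 1.07, and a second Pvt1 probe just missed the threshold at 0.96. Of 7 microRNA host genes on the array, 1 was measured, Mir22hg, with the values given above and no membership.

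Long noncoding RNAs also stood among the lowest with CCG1423. Rab26os had levels of 2.82, 2.78, 0.85, 2.78 and 2.52, a difference of -1.92 (3.80-fold lower), with the other 4 arrays close together. Gm20324 had -1.33, -1.49, -3.45, -1.60 and -0.49 (difference -1.96), and 2700038G22Rik had -0.29, -0.59, -2.50, -1.50 and -1.14 (difference -1.91). In Gm20324 the clones differed by -1.11, clone 2 being the highest array, and in 2700038G22Rik both clones lay between the 2 wild-type arrays with TGF-β1.

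Some members have a second probe for the same RNA, which bears on how far a value belongs to the whole transcript. Crnde, a long noncoding RNA beside the homeobox gene Irx5, and NR_002840 each had 2 member probes that were both higher with CCG1423, by 1.06 and 1.02 and by 1.55 and 1.36. In contrast, the member probe of Norad, an abundant RNA that binds Pumilio proteins, had levels of -1.59, -0.54, -1.82, -1.67 and -1.44, with differences of 1.05 and -1.28. The other 3 Norad probes gave 0.03 to 0.14 with TGF-β1 and -0.47 to -0.23 with CCG1423, so the value of the member probe was not shared along Norad.
The same held for 5830417I10Rik (-1.82 and, on its other probe, -0.28). The noncoding transcript of Hikeshi, a gene of a nuclear import factor for Hsp70 proteins, differed by 1.60, and the 3 coding Hikeshi probes by 0.00 to 0.23. A further noncoding probe that passed became a member itself, so such pairs are not tallied. Probes for coding transcripts could not be chosen: 7 were measured for 4 genes with a member in the CCG1423 contrast, and all 7 had the sign of the member while none passed. They include the Hikeshi probe at 0.00, and probes of the same gene are not independent. Over all probes measured, 12852 lay above 0 in this contrast and 12428 below. In the TGF-β1 contrast both coding probes, those of Bmp1, had the sign of the member and 1 passed.

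The noncoding transcripts of coding genes were 6. Besides Bmp1 and Hikeshi, Clmn (1.29) and Sytl2 (1.30) were higher with CCG1423, and Hspa14 (-1.30) and Sec14l1 (-1.03) were lower. Sytl2 encodes a binding partner of Rab27, which carries melanosomes and other vesicles, and Hspa14 an Hsp70 family protein. The measured coding probe of Sytl2 differed by 0.37, and both of Hspa14 by -0.44 and -0.40, with the sign of the member in each case.

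Parent genes were looked up only from pseudogene symbols that name them. Where such a parent was found and measured, the pseudogene member had values close to those of the parent. Gpr137b-ps differed by -1.10 with TGF-β1 and 1.69 with CCG1423, and Gpr137b by -1.07 and 1.67. Marcksl1-ps4 gave 1.03 and -1.54, and Marcksl1, whose protein binds actin and membranes, 1.06 and -1.63. Tyms-ps gave 0.18 and -1.55, and Tyms, the gene of thymidylate synthase, 0.15 and -1.50. Whether these probes bind the messenger RNA of the parent gene was not tested, so the pseudogene values are uncertain. The same limit holds for the pseudogene members that were not compared, among them 5730416F02Rik and AA543401.

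RNAs named for a gene on the opposite strand often had values apart from those of the gene. The RNAs were chosen for their own differences and the genes were not, so the rule favours such gaps and they are description. Kcnmb4os2 and Kcnmb4 were both higher with TGF-β1, by 1.61 and 2.38, but with CCG1423 they gave -0.20 and -2.14. Rab10os differed by -1.99 and -1.29, while Rab10 gave -0.15 and 0.08. Tmem51os1 was 0.87 higher with TGF-β1, as was Tmem51 by 0.94, and with CCG1423 they gave 1.57 and -0.55. Cep83os and Med9os were higher with CCG1423 by 1.33 and 1.19, where Cep83 and Med9 gave 0.36 and 0.07. Rab26, opposite Rab26os, was not measured on all arrays. With normexp the TGF-β1 difference of Kcnmb4os2 was 0.57, and the CCG1423 differences of Rab10os and Med9os were -0.34 and 0.76. Those of Cep83os (1.14), Tmem51os1 (1.31) and Rab26os (-1.82) stayed past 1, as did the TGF-β1 difference of Rab10os (-1.23).

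**Figure D4:**
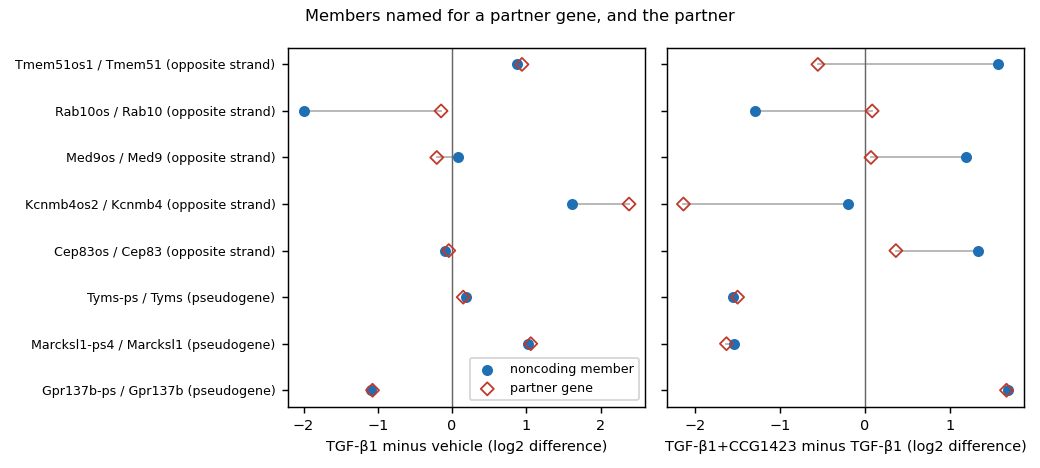
Log2 differences TGF-β1 minus vehicle (left) and TGF-β1 with CCG1423 minus TGF-β1 (right) for 8 members named for a partner gene (filled points) and for that partner (open diamonds), 1 array per condition. The 3 pseudogenes lie on their parent genes, such as Tyms-ps at -1.55 and Tyms at -1.50, while Rab10os at -1.99 lies far from Rab10 at -0.15.

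Neighbouring coding genes within 5000 bases were also compared, using RefSeq positions of GRCm38.p6 for names alone. Of 91 members with a noncoding entry, 64 had such a neighbour and 58 a measured one. Beside the members higher with TGF-β1, 3 of 11 neighbours were higher by 1 or more, against 3.14% of 11484 coding genes measured: Kcnmb4, and Aopep (1.86) and Fancc (2.72), both beside Gm16907 and neighbours of each other. Beside the members lower with TGF-β1, 0 of 9 neighbours were lower by 1 or more, against 1.09% of coding genes. Beside those higher with CCG1423, 1 of 27 neighbours was higher, Lrrc75a (1.72) next to 2410006H16Rik, against 3.61% of coding genes, and 2 were lower, Arhgap21 (-3.59) near Gm13375 and Setd7 (-1.31) at 5031434O11Rik. Beside those lower with CCG1423, 1 of 29 was lower, Hsd17b7 (-1.20) at 3110045C21Rik, against 5.58% of coding genes. 0610009L18Rik lies near Actg1, the gene of cytoplasmic γ-actin. It differed by 1.11 with CCG1423 and Actg1 by -0.60.

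The knockout clones gave the only comparison with more than 1 array on a side. Past the threshold against the wild type with TGF-β1 were 16 members in clone 1 (12 higher, 4 lower, with 3.51% of all probes past it, 2.08% higher and 1.43% lower) and 14 in clone 2 (6 higher, 8 lower, with 3.3% of all probes, 2.01% higher and 1.28% lower). These shares, 15.4% and 13.5% of members, stand beside 5.49% and 2.55% of the 510 other noncoding probes, but the wild-type TGF-β1 array took part in choosing the members. Only 5730416F02Rik passed the same way in both clones, lower by 1.59 in clone 1 and by 2.15 in clone 2 (0.962% of members, and 0.799% of all probes, 0.388% higher and 0.411% lower). Its mean difference was -1.87 (SE 0.35, n = 2 clones against 1 array), with an adjusted p of 0.223 by limma over all probes.
None of the 104 members had a limma adjusted p under 0.05 (0.0356% of all probes did), and 17 had an unadjusted p under it, 8 higher and 9 lower, where 3.83% of all probes did. Without limma's mean-variance trend the counts were 0 and 18. With the deposited value table in limma 1 member passed, 5730416F02Rik, with a mean of -2.07 and a limma adjusted p of 0.0191, where the other alternatives gave 0.195 to 0.475, and 4 members passed 1 the same way in both clones.

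Further members whose clones lay on the same side are given with their values and did not pass the limma test. Tmem51os1 had levels of -0.56, 0.31, 1.88, 1.48 and 1.13, so both clones were above the wild type with TGF-β1, by 1.16 and 0.82 (limma adjusted p = 0.962). A930001C03Rik was at -1.72, -1.71, -0.49, -0.82 and -0.63, and its clones lay 0.89 and 1.09 above. Norad's member probe differed by -1.13 and -0.90, and 9230112J17Rik by -0.98 and -1.24.

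**Figure D5:**
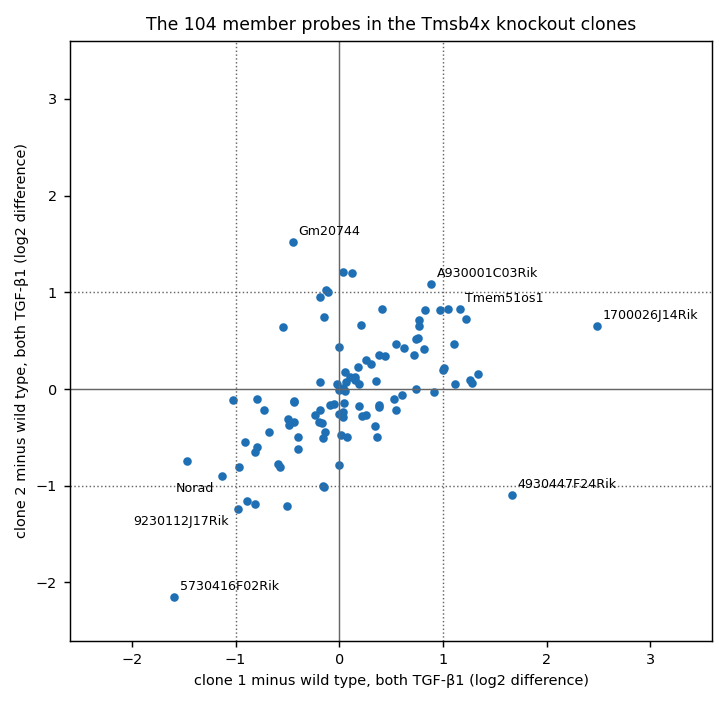
Log2 difference from the wild type with TGF-β1 of clone 1 (x axis) and clone 2 (y axis) for the 104 member probes, 1 array per clone; both axes use the same wild-type array. Dotted lines mark 1 and -1, and 5730416F02Rik at -1.59 and -2.15 is the only point past -1 on both.

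Differences between the clones are the spread within a condition. The rule did not use the size of this difference, but it kept only probes well above background on both clone arrays. Clone 1 and clone 2 differed by 1 or more in 13 members, 12.5% of them (6 higher and 7 lower in clone 1), against 5.10% of the other noncoding probes and 3.91% of all probes (1.8% higher, 2.1% lower). With normexp, which damps dim spots, 1 member remained, 4930447F24Rik at 1.73, or 0.962% of members against 1.96% of the other noncoding probes and 1.72% of all probes. The largest was that of 4930447F24Rik, 2.77 higher in clone 1, where the clones lay on opposite sides of the wild type with TGF-β1. Gm20744 differed by -1.97, 1700026J14Rik by 1.84, 5830454E08Rik by 1.22 and Sytl2 by -1.18. In 1700026J14Rik clone 1 lay 2.49 above the wild type with TGF-β1 and clone 2 lay 0.65 above it. Median spot level was -0.86 for members, -0.66 for all noncoding probes measured and 0.44 for all probes measured.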

How the data were processed

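Cy3-labelled RNA of 5 cultures was measured on 5 Agilent arrays of the same slide and scan per the file headers, so no batch could be tested. Whether the cultures were independent is not stated in the labels; a p-value here reflects the spread of these arrays alone, which may be technical. The intensity used, the processed signal, was background-subtracted and detrended within each array by Agilent Feature Extraction 12.0.3.1, per the file headers and the submitters' processing notes. That software also set the flags for outlier spots and for signal well above background, per the file headers. The series' deposited value table gives this signal times a constant per array, whose rule is unknown; its column medians were 26.9, 29.2, 27.5, 23.2 and 28.8, and its log2 values served as an alternative. Headers name an older mouse build; RefSeq tables of GRCm38.p6 supplied names and promoters.

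Control and outlier spots (107 to 141 per array of 59305) were left out, which left 56595 probes. Log2 signals of a probe's spots were averaged and the array's 75th percentile subtracted. A probe was measured when well above background on all 5 arrays. For the clones, limma (version 3.58.1, R version 4.3.3) was fitted with lmFit and eBayes and a mean trend (5 arrays in 4 groups, 1 residual degree of freedom, Benjamini-Hochberg adjustment over all probes measured), which assumes that the single wild-type arrays vary like the clones. The script was tested on simulated data. Tables and plots were made in Python 3.11.15 with pandas 2.3.3, numpy 2.4.6 and matplotlib 3.10.9.

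The members, gene lists and comparisons were chosen with earlier results of these data known. Named are the 10 members most higher and lower per contrast, those past 1 in both contrasts or in both clones, the 5 with the largest clone difference, list members, those nearest the threshold, and members with a second probe. Neighbours, partners, host genes and further clone examples were picked after their values were seen. Alternatives were other scalings, normexp background correction, filters on dim probes, a threshold of 1.5 and leaving out a clone. The number of arrays limits the precision.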

Additional observations from a re-analysis of the deposited data

How the results depend on the processing

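No paired analysis was possible because the groups share fewer than 2 replicate numbers. Of 1120 single values under the alternatives, 909 moved by less than the spread of 0.19, 211 moved by more and none changed sign. They cover every difference of 1 or more, with 1 probe per member RNA, so a sign change was unlikely from the start. Array-median scaling and the deposited table shift all probes of an array by a constant, so their moves were set by that constant. With normexp, 68 of 87 CCG1423 differences and 21 of 26 TGF-β1 differences moved by more. Scaling by the array median or by quantiles kept 102 of the 104 members, and the deposited table kept 91. With normexp (offset 50, chosen after seeing the data because the mean signal planned for it is not in the columns used here, so that version was not run) 52 probes met the rule: 16 with TGF-β1 (8 higher), 38 with CCG1423 (17 higher, 21 lower). CCG1423 against vehicle then gave 37 members, the mean of the clones 1 and the clone difference 1. Requiring signal on the arrays of the contrast alone gave 40 with TGF-β1 (18 lower). Requiring a mean level above the noncoding median gave 48 members, 10 with TGF-β1 (7 higher, 3 lower) and 41 with CCG1423 (18 higher, 23 lower), and a threshold of 1.5 gave 47. Members past 1 the same way in both clones numbered 2 with quantile scaling and 4 with the deposited table, under which limma called 1 and gave 10 at an unadjusted p under 0.05. By the mean of the clones 7 members passed 1, and 14 to 16 with a clone left out. The deposited table shifted the median of all probes to -0.12 for CCG1423 minus TGF-β1 and to -0.32 for clone 1 minus wild type.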
